A study of Mus musculus with 6 samples.

Results

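Integrins are the cell-surface receptors with which cells hold on to the extracellular matrix and to one another, and laminins are the main adhesive proteins of the basement membrane. The members described here were all protein-coding genes of the deposited count table named as integrin alpha or beta subunits or as laminin alpha, beta or gamma chains, 37 of the 55487 genes listed. They comprised 26 integrin subunits and 11 laminin chains. RNA came from mouse lungs bearing KP tumours (KP is a mouse model of lung adenocarcinoma), taken 11 weeks after the tumours were initiated. Cells were sorted as GFP positive and CD45 negative, CD45 being the pan-leukocyte surface protein. The sgNeo group carried wild-type Lkb1 and the sgLkb1 group carried mutant Lkb1, each with 3 libraries, and KP tumour background, tissue, sort and time were common to both. The labels name no strain, age or sex and do not say what drives GFP, nor whether the libraries of a group came from separate animals, so each p-value measures the spread between these libraries, which may be technical.

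Each integrin pairs 1 alpha with 1 beta subunit, and the pair sets the ligand: collagen, laminin, fibronectin and other ligands with an Arg-Gly-Asp motif, or counter-receptors on leukocytes. Inside the cell the beta tail binds talin and kindlin, which switch the receptor on and link it to actin. Laminins are cross-shaped trimers of 1 alpha, 1 beta and 1 gamma chain. In lung epithelium they lie in the membrane under alveolar and airway cells, and alpha 3 and beta 3 are chains of laminin-332, the ligand of the hemidesmosome integrin alpha 6 beta 4.

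Libraries held between 26007503 and 41729299 expected counts, and all 3 sgLkb1 libraries were deeper than every sgNeo library. Levels are given as CPM, counts relative to library sizes scaled by TMM, and 3 counts equalled 0.119 to 0.121 CPM in sgNeo and 0.0734 to 0.0861 CPM in sgLkb1. Log2 CPM over the tested genes correlated across genes at r = 0.961 to 0.980 within groups and at 0.907 to 0.934 between them. Stk11, which encodes Lkb1, measured 68.4, 33.4 and 82.7 CPM in sgNeo and 23.5, 25.6 and 25.3 CPM in sgLkb1, a log2 change of -1.31 (SE 0.30, edgeR adjusted p = 0.023). Every sgLkb1 library lay below every sgNeo library, and Stk11 RNA was present in all 6. Of 10 epithelial tumour cell markers, Epcam rose from 501 to 1073 CPM and Krt19 rose too, whereas the alveolar type 2 genes Sftpc (75930 to 8691 CPM) and Sftpb (5824 to 2220 CPM) and the lung lineage gene Nkx2-1 (274 to 129 CPM) fell. Cdh1 averaged 949 and 1047 CPM and did not pass, and the leukocyte gene Ptprc, which encodes CD45, lay between 4.36 and 10.4 CPM.

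Of the 37 members, 35 passed the filter on low counts; Itgad and Lamc3 did not. With sgLkb1 compared to sgNeo by edgeR's quasi-likelihood test at an adjusted p of 0.05, 10 members were higher and 2 lower. Over all 15978 genes tested, 7.05% were called higher, 8.6% lower and 15.7% in either direction. The median log2 fold change was 0.51 over the tested members and 0.02 over all tested genes. The integrins contributed 6 higher and 2 lower of 25 tested (median 0.52), and the laminins 4 higher and 0 lower of 10 (median 0.45). At an unadjusted edgeR p under 0.05, 2 laminins were lower, and DESeq2 called 1 and limma-voom 0. Here and below, counts at an unadjusted p stand without the share of all genes at that threshold, which was not counted. In 14 members every sgLkb1 library lay above every sgNeo library, against 16.3% of all genes, and in 6 members every one lay below, against 20.3%. At an adjusted p of 0.05, 5 of the 12 called members passed in every alternative fit: Itgb3, Itgb4 and Lamb1 among the higher, and Itga7 and Itga9 among the lower. The other 7 lost the call when at least 1 library was left out. Without sgNeo replicate 1 or replicate 2, 3 integrins were higher, and the laminin count fell from 4 to 1 without any 1 sgNeo library and to 2 without any 1 sgLkb1 library.

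**Figure D1:**
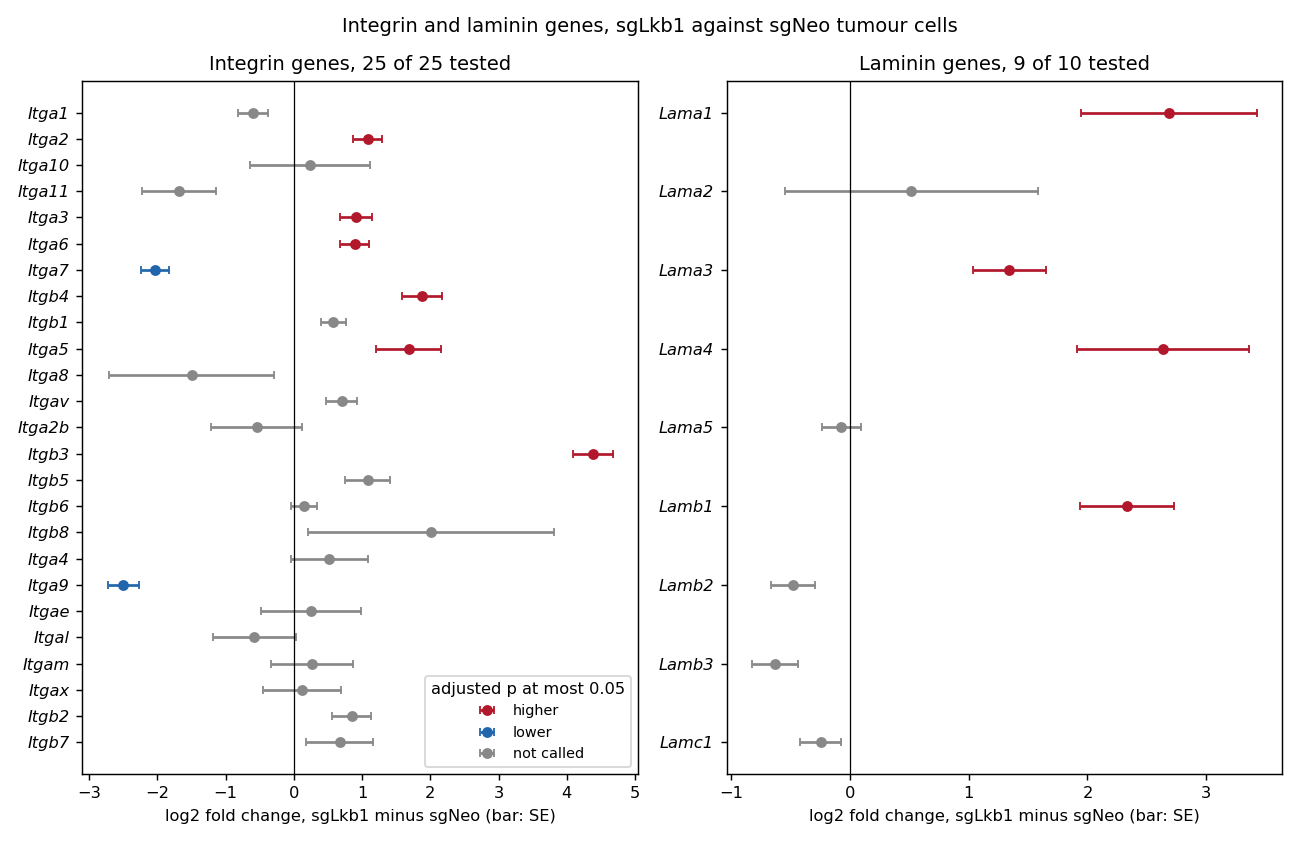
Log2 fold changes (sgLkb1 minus sgNeo, horizontal axis) of the 25 tested integrins and 9 of the 10 tested laminins, with bars for the SE and colour for the call. Itgb3 at 4.38 lies farthest to the right of the called members, and Itga9 at -2.49 and Itga7 at -2.03 farthest to the left.

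Of the called members Itgb3 changed the most. It was the only 1 to pass of the 4 beta partners of alpha v compared here, Itgb3, Itgb5, Itgb6 and Itgb8. Itgb1, the partner of most alpha subunits, alpha v among them, was left out of this class and is described below. Integrin beta 3, the partner of alpha v in a receptor for vitronectin, fibronectin and osteopontin and of alpha IIb on platelets, rose 20.9-fold. Itgb3 (chr11:104608000-104670476, plus strand, GRCm38) measured 3.41, 2.75 and 4.58 CPM in sgNeo (3.58 ± 0.926, SD, n = 3) and 64.9, 99.5 and 59.9 CPM in sgLkb1 (74.8 ± 21.6). The lowest sgLkb1 library was far above the highest sgNeo library. Its log2 change was 4.38 (SE 0.29, edgeR adjusted p = 0.000243), and 4.15 to 4.59 with any 1 library left out. The coding ends of Itgb3, Itgb5 and Itgb6 are shown because Itgb3 rose the most of all called members and the others did not pass. These ends carry the talin-binding tail that the subunits have in common. Each line is the last 150 coding bases, 5′ to 3′ and stop codon included, of the principal transcript in GENCODE M21, and capitals mark the codons of the Asn-Pro-X-Tyr motif to which talin binds.
Itgb3: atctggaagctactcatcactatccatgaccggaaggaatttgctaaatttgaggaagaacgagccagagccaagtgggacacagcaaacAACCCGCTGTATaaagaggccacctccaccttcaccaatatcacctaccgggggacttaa
Itgb5: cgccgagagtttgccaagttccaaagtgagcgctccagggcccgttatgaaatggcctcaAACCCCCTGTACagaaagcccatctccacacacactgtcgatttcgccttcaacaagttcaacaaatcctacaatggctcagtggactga
Itgb6: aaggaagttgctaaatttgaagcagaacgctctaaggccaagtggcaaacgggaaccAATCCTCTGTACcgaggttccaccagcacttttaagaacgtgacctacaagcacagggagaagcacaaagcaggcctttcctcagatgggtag

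All 3 ends contain the motif 1 time. Of the 8 beta subunits, Itgb1 holds 2 such runs in its last 150 coding bases and Itgb4, Itgb2 and Itgb8 hold 0.

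Integrin beta 6, the epithelial partner of alpha v that binds and activates latent TGF-beta, did not pass the test. Itgb6 (chr2:60598292-60722643, minus strand) measured 59.9, 59.4 and 75.5 CPM in sgNeo and 89.0, 64.5 and 61.5 CPM in sgLkb1. The groups overlapped (a log2 change of 0.14 with SE 0.19, edgeR adjusted p = 0.663). Itgb5 (chr16:33829665-33949338, plus strand), whose product pairs with alpha v as a vitronectin receptor, measured 20.1, 15.3 and 19.0 CPM in sgNeo and 22.7, 58.1 and 34.2 CPM in sgLkb1. All sgLkb1 values were above the sgNeo values, with a log2 change of 1.08 (SE 0.32, edgeR adjusted p = 0.0583). It passed without sgLkb1 replicate 1, its lowest library of that group (adjusted p = 0.00934). Itgb8, a further activator of latent TGF-beta, was at 0 in 3 of 6 libraries and reached at most 2.47 CPM, in sgLkb1 replicate 3. The common alpha subunit Itgav measured 120, 103 and 101 CPM in sgNeo and 232, 169 and 125 CPM in sgLkb1 (a log2 change of 0.70 with SE 0.23, edgeR adjusted p = 0.0776). Its groups did not overlap, and it passed without sgLkb1 replicate 3 (adjusted p = 0.0298).

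Divided by exon length, the make-up of these 4 alpha v partners, with Itgb1 left out, differed between the groups. Itgb3 made up 3.94%, 3.54% and 4.64% of their summed CPM per kilobase in the sgNeo libraries and 36.8%, 39.9% and 35.4% in the sgLkb1 libraries. Its share was thus 33.3 percentage points greater in sgLkb1, with no overlap. Itgb6 held 61.4% ± 3.38 (SD, n = 3) in sgNeo and 31.2% ± 10.2 in sgLkb1, and Itgb5 held 34.4% ± 3.61 and 31.2% ± 8.88. In sgLkb1 the 3 subunits were thus within their spread of one another, where in sgNeo Itgb6 led. These shares are descriptions of RNA, with no test, and a share falls when another member of its class rises.

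**Figure D2:**
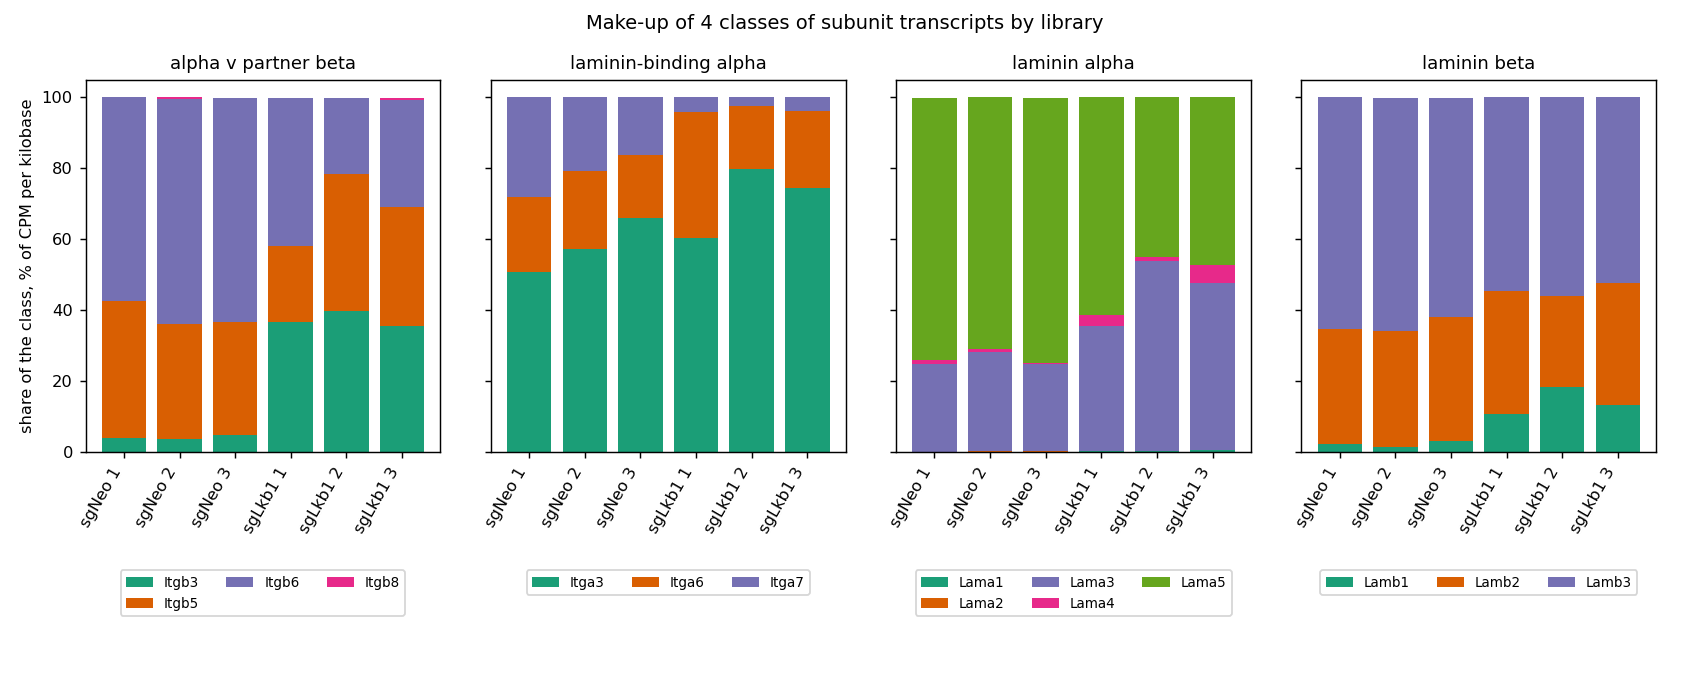
Share of each subunit (vertical axis, percent of summed CPM per kilobase of exon) within 4 classes, 1 stacked bar per library. On average Itgb3 grows from 4.04% to 37.4% of the alpha v partners compared, a class that leaves out Itgb1. The mean share of Itga7 shrinks from 21.7% to 3.48% of the laminin-binding alpha subunits. That of Lamb1 grows from 2.20% to 14.0% of the laminin beta chains.

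The alpha IIb subunit, Itga2b, which with beta 3 forms the platelet fibrinogen receptor, stayed between 0.440 and 3.46 CPM in all libraries (edgeR adjusted p = 0.63). Of 8 platelet and megakaryocyte markers 2 passed the filter, and they moved in opposite directions: Pf4 measured 59.1 CPM in sgNeo and 5.18 in sgLkb1, and Ppbp 4.93 and 59.0. The platelet receptor gene Gp1ba was at most 0.294 CPM. By library the platelet sums were 110, 47.05 and 40.7 CPM in sgNeo and 29.7, 127 and 38.0 CPM in sgLkb1. Both Itgb3 (99.5 CPM) and the platelet sum, with Ppbp at 121 CPM, were highest in sgLkb1 replicate 2, and Itgb3 measured 64.9 CPM in sgLkb1 replicate 1, where the sum was lowest. The part of platelet RNA in the Itgb3 values was not tested.

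The laminin receptors changed in both directions. Of the 3 alpha subunits that bind laminin with beta 1, Itga3 and Itga6 rose while Itga7 fell; beta 4, which pairs only with alpha 6 and anchors hemidesmosomes, rose as well. Itga7 (chr10:128933818-128958282, plus strand), the laminin receptor best known from muscle, measured 124, 95.2 and 85.0 CPM in sgNeo (101 ± 20.1, SD, n = 3) and 27.8, 19.8 and 26.8 CPM in sgLkb1 (24.8 ± 4.38). The groups were well apart, with a log2 change of -2.03 (SE 0.21, edgeR adjusted p = 0.000959). Itgb4 (chr11:115974709-116008412, plus strand) measured 13.8, 28.4 and 24.8 CPM in sgNeo (22.3 ± 7.60) and 63.1, 103 and 79.7 CPM in sgLkb1 (82.1 ± 20.3). No sgNeo library reached the lowest sgLkb1 library (a log2 change of 1.88 with SE 0.30, edgeR adjusted p = 0.00528). In GENCODE M21 7.66% of its exon bases overlap B230344G16Rik on the other strand, from which reads cannot be told apart without a known strand setting.

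Itga3 measured 158, 186 and 245 CPM in sgNeo and 281, 447 and 376 CPM in sgLkb1 (a log2 change of 0.91 with SE 0.23, edgeR adjusted p = 0.035). The groups did not overlap, but the call was lost without sgNeo replicate 1 or 2 or sgLkb1 replicate 2 or 3, with adjusted p up to 0.137. Itga6 measured 103, 112 and 103 CPM in sgNeo and 262, 156 and 174 CPM in sgLkb1 (a log2 change of 0.89 with SE 0.21, edgeR adjusted p = 0.0259). Its rise was least in sgLkb1 replicates 2 and 3, the libraries in which Itgb4 was highest, and the call was lost without any 1 sgNeo library (adjusted p up to 0.0991). Among the laminin-binding alpha subunits per kilobase, Itga7 held 28.2%, 20.7% and 16.2% in sgNeo and 4.20%, 2.49% and 3.75% in sgLkb1, while Itga3 held 58.1% and 71.6% on average. Itgb1, the partner of most alpha subunits and the most abundant integrin per kilobase in both groups (148 and 221 CPM per kilobase), measured 617, 663 and 535 CPM in sgNeo and 988, 961 and 755 CPM in sgLkb1. The groups did not overlap, and the log2 fold change of 0.57 (SE 0.18) had an edgeR adjusted p of 0.0708.

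**Figure D3:**
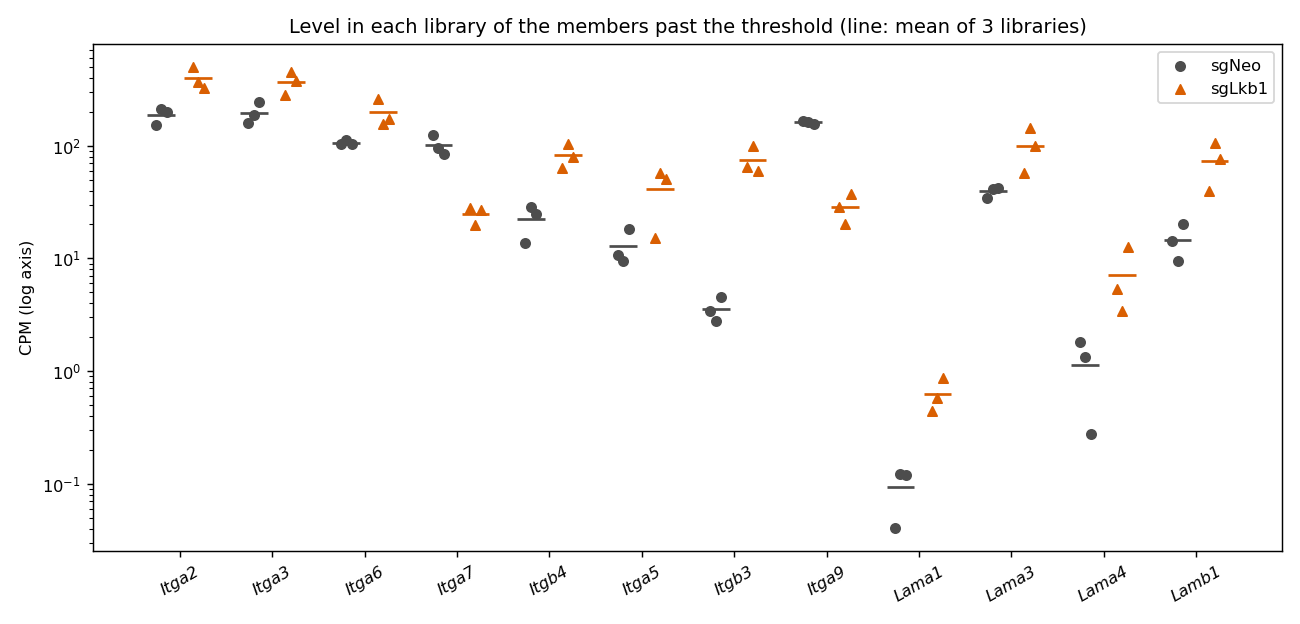
CPM of the 12 called members in each of the 6 libraries on a logarithmic axis, with points for libraries and short lines for the means of 3. The sgNeo and sgLkb1 points of Itgb3, Itgb4, Lamb1, Itga7 and Itga9 stand apart, whereas those of Itga5 overlap.

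Itga9 fell the most of all members. Integrin alpha 9 pairs with beta 1 and binds tenascin-C, osteopontin, VCAM-1 and the extra domain A of fibronectin. Itga9 (chr9:118606690-118901003, plus strand) measured 167, 161 and 157 CPM in sgNeo (162 ± 4.83, SD, n = 3) and 28.6, 20.1 and 37.4 CPM in sgLkb1 (28.7 ± 8.67). The sgNeo libraries lay close together and far above all sgLkb1 libraries, with a log2 change of -2.49 (SE 0.23, edgeR adjusted p = 0.000778) and -2.74 to -2.26 with any 1 library left out. Per kilobase it ranked 4 of the 26 integrins in sgNeo and 12 in sgLkb1. Itga7 went from rank 5 to rank 13 and Itgb3 from rank 16 to rank 6. The related subunit Itga4, which shares several ligands with alpha 9 and is best known from leukocytes, stayed between 0.398 and 1.17 CPM.

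Among the collagen and fibronectin receptors, Itga2 and Itga5 rose. Itga2, the main epithelial collagen receptor subunit, measured 153, 210 and 199 CPM in sgNeo and 499, 366 and 326 CPM in sgLkb1 (a log2 change of 1.08 with SE 0.22, edgeR adjusted p = 0.0133). All sgLkb1 libraries were above the sgNeo libraries, and the call was lost without sgNeo replicate 1 (adjusted p = 0.0632). Itga5, the classical fibronectin receptor subunit, measured 10.6, 9.47 and 18.2 CPM in sgNeo and 15.2, 57.5 and 50.1 CPM in sgLkb1 (a log2 change of 1.68 with SE 0.48, edgeR adjusted p = 0.0488). Here the groups overlapped, since sgLkb1 replicate 1 lay below sgNeo replicate 3. The call was lost without any 1 sgNeo library and without sgLkb1 replicate 2 or 3 (adjusted p up to 0.167), and without sgLkb1 replicate 1 the adjusted p was 0.00406. The other collagen receptor subunits did not pass: Itga1 averaged 20.7 CPM in sgNeo and 13.6 in sgLkb1 (a log2 change of -0.60, edgeR adjusted p = 0.108), Itga11 averaged 1.55 and 0.481 CPM (a log2 change of -1.68, edgeR adjusted p = 0.0734), and Itga10 was at most 0.648 CPM. All sgLkb1 values of Itga1 and of Itga11 were below the sgNeo values, and Itga1 passed without sgLkb1 replicate 1 (adjusted p = 0.0188). Itga8, a nephronectin receptor subunit, was between 0 and 1.40 CPM (edgeR adjusted p = 0.45).

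The integrins of leukocytes were low in libraries from CD45-negative cells, and Itgae, Itgal, Itgam, Itgax, Itgb2 and Itgb7 did not pass. Itgb2, the common beta subunit of the leukocyte integrins, was the most abundant at 14.8, 7.09 and 9.56 CPM in sgNeo and 17.1, 18.1 and 21.4 CPM in sgLkb1. The groups did not overlap (a log2 change of 0.85 with SE 0.28, edgeR adjusted p = 0.0822), and it passed without sgNeo replicate 1 (adjusted p = 0.0395). Its alpha partners Itgal, Itgam and Itgax averaged 2.06, 1.24 and 3.89 CPM in sgNeo and 1.38, 1.5 and 4.22 CPM in sgLkb1, and 68.7% of the exon bases of Itgam also belong to Gm49368. Itgb7 averaged 3.02 CPM and 4.82 CPM, Itgae 0.415 and 0.496 CPM, and Itgad was not tested, with 3, 1 and 0 counts in sgNeo and 0 in each sgLkb1 library. Among 12 leukocyte and macrophage markers, Mrc1 and C1qb were higher and Lyz1 was lower, and Ptprc overlapped between groups (edgeR adjusted p = 0.886). At an unadjusted edgeR p under 0.05, 7 of these markers were higher and 1 lower. DESeq2 called 5 higher and 1 lower, and limma-voom 1 higher and 1 lower. The part of leukocytes and macrophages in the Itgb2 values was not tested.

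Laminin beta 1, a chain of embryonic and interstitial basement membranes, rose, and was the chain whose call held in every alternative fit. Lamb1 (chr12:31265234-31329644, plus strand) measured 14.2, 9.43 and 20.2 CPM in sgNeo (14.6 ± 5.41, SD, n = 3) and 39.95, 106 and 75.4 CPM in sgLkb1 (73.7 ± 32.9). The groups did not overlap, with a log2 change of 2.33 (SE 0.40, edgeR adjusted p = 0.00706) and 2.02 to 2.63 with any 1 library left out. The partner beta chains did not pass and lay lower in every sgLkb1 library. Lamb2, the beta chain of laminins with alpha 5 in mature membranes, averaged 136 ± 8.81 and 97.6 ± 21.5 CPM (a log2 change of -0.48, edgeR adjusted p = 0.117), and passed without sgLkb1 replicate 3 (adjusted p = 0.0355). Lamb3, the beta chain of laminin-332, measured 279, 298 and 280 CPM in sgNeo and 137, 215 and 200 CPM in sgLkb1 (a log2 change of -0.63 with SE 0.19, edgeR adjusted p = 0.0618). Per kilobase, Lamb1 held 2.20% of the beta chains in sgNeo and 14.0% in sgLkb1, Lamb2 33.4% and 31.7%, and Lamb3 64.4% and 54.3%. Lamb3 led the beta chains in both groups.

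The alpha 3 chain rose. Lama3, the alpha chain of laminin-332, measured 34.5, 41.6 and 42.3 CPM in sgNeo and 56.7, 144 and 98.9 CPM in sgLkb1 (a log2 change of 1.34 with SE 0.31, edgeR adjusted p = 0.023). All sgLkb1 libraries were higher, and the call was lost without any 1 sgNeo library and without sgLkb1 replicate 2, its highest (adjusted p up to 0.0878). Lama3 thus passed upward while Lamb3 had a negative value that did not pass, and the difference between the 2 chains was not tested. Lama5, the alpha chain of the alveolar basement membrane, measured 109, 112 and 136 CPM in sgNeo and 104, 129 and 106 CPM in sgLkb1 (a log2 change of -0.08 with SE 0.16, edgeR adjusted p = 0.801). Among the alpha chains per kilobase Lama3 held 25.8% ± 1.92 in sgNeo and 45.2% ± 9.19 in sgLkb1, and Lama5 73.3% ± 2.12 and 51.2% ± 8.87. Lama3 lay below Lama5 in both sgLkb1 replicate 1 (35.3% against 61.4%) and replicate 3 (46.9% against 47.2%), and above it in replicate 2 (53.5% against 45.1%). Lamc1, the gamma chain of most laminins, averaged 51.3 and 43.2 CPM (edgeR adjusted p = 0.372).

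The remaining alpha chains were scarce. Lama4, typical of vessels and mesenchyme, measured 1.80, 1.34 and 0.279 CPM in sgNeo and 5.33, 3.38 and 12.6 CPM in sgLkb1 (a log2 change of 2.63 with SE 0.72, edgeR adjusted p = 0.0436). The groups did not overlap, sgLkb1 replicate 3 was highest, and without that library the log2 fold change was 1.93 with an adjusted p of 0.117. The call was also lost without any 1 sgNeo library and without sgLkb1 replicate 1. Lama1, an embryonic chain, had 1, 3 and 3 counts in sgNeo and 18, 22 and 30 in sgLkb1, with group means of 0.0937 and 0.626 CPM. It passed (edgeR adjusted p = 0.0445), but its sgNeo mean lay below the level of 3 counts and the call was lost in all 6 fits that left out a library, so its fold rests on few reads. Lama2, the muscle chain, was at most 0.717 CPM, and Lamc3 was not tested, with a highest value of 1.72 CPM in sgLkb1 replicate 3.

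Of the 5 called members with a start-site window in the RefSeq table (assembly GRCm38.p6), Lamb1 is the one called higher in every alternative fit. Its 250 bases upstream of the RefSeq start (chr12:31265043-31265292, plus strand, GRCm38) are shown 5′ to 3′. The span of Lamb1 in GENCODE M21 begins at base 31265234, so the end of this stretch lies inside it. Capitals mark GC boxes (GGGCGG, read on either strand) and a CCAAT box (CCAAT, either strand).
Lamb1: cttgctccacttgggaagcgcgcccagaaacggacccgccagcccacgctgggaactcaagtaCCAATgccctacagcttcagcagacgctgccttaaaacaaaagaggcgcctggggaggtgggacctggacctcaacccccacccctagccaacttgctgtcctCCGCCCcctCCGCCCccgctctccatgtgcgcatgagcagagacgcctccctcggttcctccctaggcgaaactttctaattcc

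Outside chromosome 18, windows of 300 bases were listed for 23 of the 37 members, 26 windows in all. Member windows on that chromosome, where Lama3 lies, were left out, and no such limit was set on the windows of all genes. The AP-1 letters TGACTCA, searched on both strands, occurred in 2 of the 26, those of Itga9 and Itgax, against 5.2% of all 32851 windows. The CRE letters TGACGTCA occurred in 0 (1.79% of all windows), and the TEAD letters GGAATG in 3, those of Lamb3, Itga10 and Itgb1 (14.7%). GC boxes occurred in 12 (35.7%) and CCAAT in 4 (37.4%), and these last motifs were added after the sequences had been seen. The listed Itga9 window (chr9:118711442-118711741) lies inside the span of the gene. A match describes the letters only.

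Among 35 adaptors and activators that act on the integrin tails, 5 rose and 3 fell (median log2 fold change 0.05). Over all tested genes 7.05% were called higher and 8.6% lower, with a median of 0.02. Tns4, a tensin that binds beta tails, measured 22.4 ± 4.46 CPM in sgNeo and 106 ± 30.9 CPM in sgLkb1 (a log2 change of 2.24, edgeR adjusted p = 0.0014), Actn1, which encodes an actin crosslinker, 41.97 and 88.4 CPM, and Parvb, a parvin of the ILK complex, 0.548 and 3.67 CPM. Fermt2, the kindlin of most adherent cells, fell from 81.5 ± 10.4 to 41.1 ± 4.795 CPM (a log2 change of -0.99, edgeR adjusted p = 0.0064). The epithelial kindlin Fermt1, named after its values were seen, rose from 28.3 ± 7.17 to 97.1 ± 46.4 CPM (a log2 change of 1.78, edgeR adjusted p = 0.0138). The talins Tln1 and Tln2 did not pass (edgeR adjusted p = 0.165 and 0.494). Without sgNeo replicate 1 or 2, 3 members of this list were higher.

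Basement membrane partners of the laminins moved both ways. Of 23 tested, 7 were higher and 4 lower (median 0.54), against 7.05% and 8.6% of all tested genes. Nidogens bridge laminin to collagen IV: Nid1 measured 7.05 ± 1.78 CPM in sgNeo and 39.1 ± 9.58 CPM in sgLkb1 (a log2 change of 2.47, edgeR adjusted p = 0.00111), and Nid2 1.18 and 5.71 CPM. Col18a1, a basement membrane collagen, rose from 74.9 to 182 CPM. The 2 collagen IV chains named by the rule, found in alveolar and glomerular membranes, fell, Col4a3 from 49.5 to 19.5 CPM and Col4a4 from 21.3 to 4.74 CPM. On leaving out sgNeo replicate 1 the count of higher members was 3, on leaving out sgNeo replicate 2 it was 2, and on leaving out sgNeo replicate 3 or sgLkb1 replicate 2 it was 4. The count of lower members was 2 without sgNeo replicate 2 or 3 or sgLkb1 replicate 1 or 2, and 7 without sgLkb1 replicate 3.

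Of 10 tested hemidesmosome and laminin receptor partners, 1 was higher and 0 lower (median 0.43), against 7.05% and 8.6% of all tested genes. At an unadjusted edgeR p under 0.05, 5 were higher and 0 lower. DESeq2 called 3 higher and 0 lower, and limma-voom 0 in either direction. The member called by edgeR was Krt14, a basal keratin, at 1.04, 5.67 and 9.20 CPM in sgNeo and 23.5, 106 and 25.3 CPM in sgLkb1. Its log2 change was 3.28 (edgeR adjusted p = 0.0331), a call lost without sgNeo replicate 1 or 2 or sgLkb1 replicate 2. Plec, which links alpha 6 beta 4 to keratin, averaged 128 and 148 CPM (edgeR adjusted p = 0.539), and Col17a1 did not pass the filter. The rise of Itgb4 therefore stood beside no called change in Plec.

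Among 31 tested ligands other than laminins, 9 were higher and 2 lower (median 0.78), against 7.05% and 8.6% of all tested genes. Fn1, fibronectin, the ligand of alpha 5 beta 1 and the alpha v integrins, measured 135, 111 and 171 CPM in sgNeo and 323, 1545 and 944 CPM in sgLkb1 (a log2 change of 2.76, edgeR adjusted p = 0.00987). Vtn, vitronectin, did not pass the filter and was at most 0.160 CPM, in sgNeo replicate 1. Mfge8, an alpha v ligand, averaged 130 and 224 CPM. Col3a1, a fibrillar collagen that is also in the fibroblast marker list, measured 39.3, 20.3 and 13.7 CPM in sgNeo and 76.7, 94.6 and 624 CPM in sgLkb1. Its highest value was in sgLkb1 replicate 3, where the summed fibroblast markers were also highest, and without that library the sgLkb1 mean was 85.6 CPM. Nrp1, a co-receptor that also binds integrins, fell from 278 to 61.6 CPM (a log2 change of -2.17, edgeR adjusted p = 0.000453). Spp1, osteopontin, named after its values were seen because it is a ligand of both alpha v beta 3 and alpha 9 beta 1, averaged 494 ± 576 and 2315 ± 882 CPM, short of the threshold (edgeR adjusted p = 0.0906). This list depended on single libraries: edgeR called 0 members higher without sgNeo replicate 2 (13 at an unadjusted p under 0.05), 3 on leaving out sgNeo replicate 3 or sgLkb1 replicate 3, and 5 on leaving out sgNeo replicate 1. The count of lower members was 1 on leaving out any sgNeo library or sgLkb1 replicate 1 or 2.

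Markers of other cells differed between the libraries, and in bulk RNA fewer cells of a type and less RNA per cell cannot be told apart. Of 13 tested fibroblast markers 4 were higher and 0 lower (0 also at an unadjusted edgeR p under 0.05, by DESeq2 and by limma-voom). The higher count was 0 on leaving out sgNeo replicate 2 or 3, 1 without sgLkb1 replicate 3 and 2 without sgNeo replicate 1. The list summed to 200.5, 99.2 and 104.5 CPM in sgNeo and 219, 314.5 and 1553 CPM in sgLkb1. Replicate 3 of sgLkb1, where that sum was highest, also held the highest Lama4 value and the highest value of the mesothelial gene Upk3b, 16.5 CPM against at most 1.73 CPM elsewhere. Lamb1, Itga5, Itgb3, Itgb4 and Lama3 were highest in sgLkb1 replicate 2. The summed mesothelial markers were highest there too, at 2025, 3422 and 3037 CPM in sgLkb1 replicates 1, 2 and 3. Endothelial markers had 3 of 11 higher and 1 lower, with sums of 282 to 329 CPM in sgNeo and 169 to 350 CPM in sgLkb1. Esam, the marker that was lower, averaged 211 CPM of the sgNeo sum and 54.1 CPM in sgLkb1. Without it the sums were 104, 105 and 68.2 CPM in sgNeo and 123, 147 and 269 CPM in sgLkb1, higher in all sgLkb1 libraries, and 6 of the 11 were higher at an unadjusted edgeR p under 0.05. Markers of smooth muscle and pericytes, cells known to express Itga7 and Itga1, had 1 of 8 higher and 1 lower, and summed to 180 to 227 CPM in sgNeo and 76.9 to 112 CPM in sgLkb1. Their sums did not overlap between groups, as with Itga7, but Mylk alone averaged 188 CPM of the sgNeo sum and 33.1 CPM in sgLkb1, and at an unadjusted edgeR p under 0.05 6 of the 8 were higher and 1, Mylk, lower. Without Mylk the sums were 12.9 to 27.6 CPM in sgNeo and 38.4 to 76.8 CPM in sgLkb1. Mesothelial markers had 3 of 6 higher, and 6 at an unadjusted edgeR p under 0.05. Their sums were 742 to 1191 CPM in sgNeo and 2025 to 3422 CPM in sgLkb1. Msln and the epithelial keratin Krt19, which were both called, made up most of the sums. Aldh1a2, also called, averaged 1.36 CPM in sgNeo and 69.6 CPM in sgLkb1 (edgeR adjusted p = 0.00752). The epithelial list thus had 2 of 10 higher and 3 lower, and of 5 B and plasma cell markers 2 were lower. Of 6 neutrophil markers 0 passed in edgeR (2 higher at an unadjusted p under 0.05, and 1 by DESeq2 and 0 by limma-voom). Of 1 T and NK cell marker and 4 red cell markers 0 passed in edgeR, at an unadjusted p under 0.05, or by DESeq2 or limma-voom. With a library left out the epithelial higher count ranged from 0 to 3, the endothelial from 1 to 4, the mesothelial from 1 to 6, the leukocyte and macrophage from 1 to 4, the smooth muscle and pericyte from 0 to 2 and the platelet from 0 to 1, and the B and plasma cell lower count from 0 to 2. Beside the marker counts at an edgeR adjusted p of 0.05, 7.05% of all tested genes were called higher and 8.6% lower. The marker counts at an unadjusted p have no share of all genes beside them. The part of these cells in the integrin and laminin values was not tested.

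**Figure D4:**
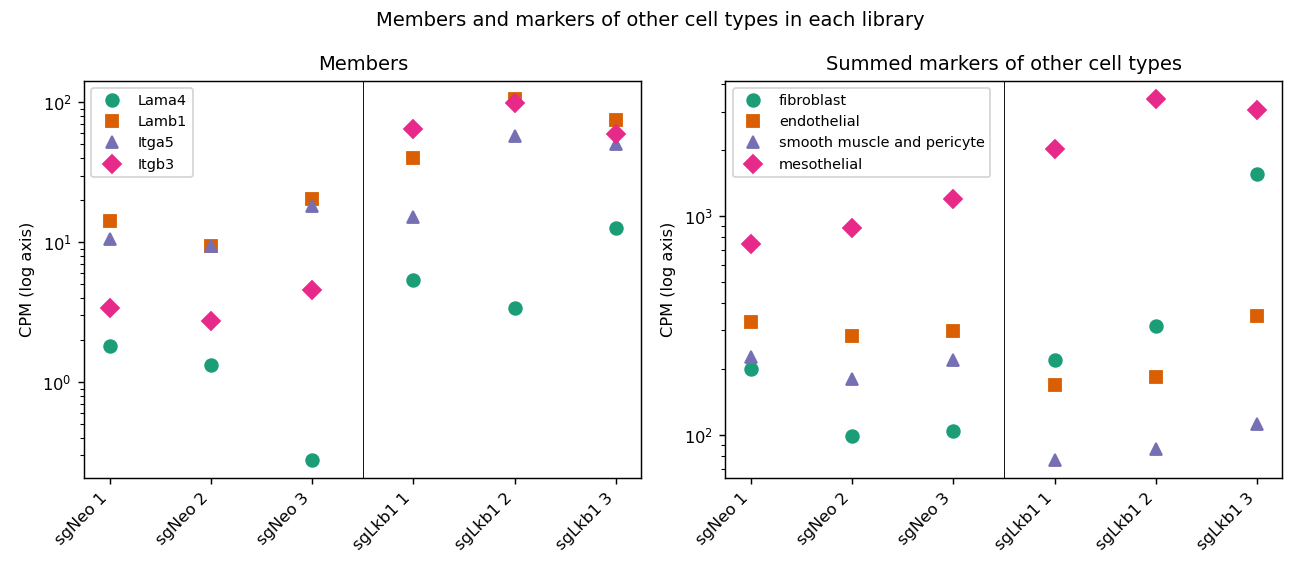
CPM in each library on logarithmic axes, for 4 members on the left and for the summed markers of 4 other cell types on the right. On the right the fibroblast sum of sgLkb1 replicate 3 stands above all other libraries at 1553 CPM. The smooth muscle and pericyte sums are lower in the sgLkb1 libraries. Without Mylk (not drawn) they are 12.9 to 27.6 CPM in sgNeo and 38.4 to 76.8 CPM in sgLkb1.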

How the data were processed

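Bulk RNA was sequenced from 6 sorted tumour-cell samples, grouped as sgNeo and sgLkb1 by the labels. The authors deposited 1 table of expected counts per gene. Per the submitters' processing notes, which give no roles or order, the build was GRCm38 and the tools were STAR, RSEM, FastQC and DESeq2. Tool versions, annotation and strand setting were not given in the sources used here. Expected counts can split a read between genes that share it: 8 members had a value that was not whole, and 12 have exon bases that overlap another gene in GENCODE M21. That annotation, matched by ID for 55227 of 55487 genes, gave positions and exon lengths.

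Expected counts were rounded. The edgeR 4.0.16 filter for low counts (filterByExpr) left 15978 genes in R 4.3.3, and edgeR's quasi-likelihood test (two-sided, TMM scaling, Benjamini-Hochberg over all genes tested, threshold 0.05) compared the groups with no covariate. Adjusted p-values are edgeR's except where another tool is given. The SE was taken from the log2 change and the F statistic, as the size of the change over the root of F. The procedure was tested on simulated counts. Reads carried no molecular identifiers used here, so a level of 3 counts covers counting error only.

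The members, the 4 partner lists and the 11 marker lists were chosen with earlier results of these data known. All members are named except 1 laminin chain, which enters the counts and medians and is not reported here. Other genes named are Stk11 and genes from the first 2 entries of a list, its 4 entries of lowest p, or its called members where these are 5 or fewer. Not every such gene is named. Spp1, Gp1ba and Fermt1 were chosen after their values were seen. Shares divide CPM by exon length. Other settings were upper-quartile and RLE scaling, no filter, a filter of 1 CPM in 3 libraries, DESeq2 1.42.0, limma-voom (limma 3.58.1), a block for replicate number, and the omission of each library. For shares they were undivided counts and, added after seeing the data, the longest coding transcript. Members or lists are described by counts and medians, with no set test.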

Additional observations from a re-analysis of the deposited data

How the results depend on the processing

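All values here are of sgLkb1 against sgNeo. Over all genes 1917 were called higher with no filter and 1773 with DESeq2, against 1127, and leaving out 1 library gave 447 to 1368 higher and 682 to 1412 lower. Integrins called higher numbered 10 with DESeq2 and 3 to 7 with a library left out, and integrins called lower 2 to 3. Laminins called higher numbered 2 with limma-voom and 1 to 2 with a library left out. Laminins called lower numbered 1 with DESeq2, where it was Lamb3, and 0 to 1 with a library left out. In the partner lists, adaptors called higher ranged from 3 to 7 and lower from 2 to 3 with a library left out. Basement membrane partners called higher numbered 4 with limma-voom and 2 to 10 with a library left out, and lower 2 to 7. Hemidesmosome partners called higher numbered 3 with no filter, 3 with DESeq2, 0 with limma-voom and 0 to 2 with a library left out. Other ligands called higher numbered 17 with no filter, 15 with DESeq2, 5 with limma-voom and 0 to 12 with a library left out, and lower 1 to 3. The Itgb3 share differed by 35.7 percentage points with undivided counts and by 29.1 with the longest coding transcript, against 33.3, and by 32.1 to 34.3 with a library left out. The Lamb1 share differed by 16.7 points with undivided counts, against 11.8, and by 9.65 to 13.6 with a library left out; the Itga7 share differed by -21.0 to -15.0 and the Lama3 share by 15.3 to 24.3. The cause of these moves was not tested.

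Whether the replicate numbers pair the samples was not settled. Deviations of same-numbered libraries from their group means correlated at 0.203, -0.017 and 0.183. For sgNeo replicates 1 and 3 the same-numbered library correlated best, whereas sgNeo replicate 2 correlated best with sgLkb1 replicate 1. Deviations from a mean of 3 libraries depend on one another, so these values cannot decide it. With the replicate block 1336 genes were higher and 1544 lower, 8 integrins and 2 laminins were higher, 1 laminin (Lamb3) was lower, and 2 hemidesmosome partners were higher. Members that did not pass may still differ, since 7 of the 23 uncalled members passed in at least 1 alternative; with DESeq2 Itgb1, Itgav, Itgb5 and Itgb2 had adjusted p-values of 0.0208, 0.0243, 0.00512 and 0.03. With limma-voom Itga5, Lama1 and Lama4 lost the call. Depth limits Itga10, Itgad, Itgae, Lama1 and Lama2, the 5 members below 1 CPM in every library.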
